A study of Mus musculus with 14 samples.

Results

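Interferon-gamma producers were compared with non-producers from T cell cultures that held a control compound. The comparison used 5 of the 14 libraries of a mouse RNA sequencing series, chosen by their labels: 3 libraries of reporter-positive cells (YFPpos) and 2 of reporter-negative cells (YFPneg), all cultured with SGC0649. It covered all 22048 genes of the count table, of which 12343 passed the filter on low counts and were tested. The mice were on the C57BL/6 background and carried a YFP reporter of interferon-gamma (IFN-g-YFP). CD4+ T cells were enriched from spleen and peripheral lymph nodes, so the starting cells were not a sorted naive population. They were held for 4 days on plates coated with antibodies to CD3 and CD28, each at 1 µg/ml, with IL-2 and IL-12 (10 ng/ml each) and anti-IL4 (10 µg/ml), a recipe that drives the T helper 1 (Th1) fate. SGC0649 was present at 1 µM in every library compared here. It is the inactive counterpart of SGC0946, which blocks the histone methyltransferase DOT1L. After culture, CD4+ cells were sorted by the presence or absence of YFP. The other 9 libraries were 3 each of sorted naive cells, of YFPneg cells with SGC0946 and of YFPpos cells with SGC0946. The design text calls the replicates biological, but the sources used here state neither the age or sex of the mice nor whether each replicate was a separate animal. All 14 libraries were fitted together with 1 mean per group. The p-values therefore measure a spread between libraries that is shared over all groups, including those not compared here, and it may be technical.

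Interferon-gamma is the cytokine that defines Th1 cells. It acts through its receptor chains, the kinases JAK1 and JAK2 and the factors they activate, which switch on antigen presentation genes, GTPases that attack intracellular microbes and many antiviral genes. Within a clonal or polarized culture, only some cells make the cytokine at a given time, and a reporter allows cells to be separated by its signal. Producers are here the reporter-positive cells, and release of the cytokine was not measured.

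The YFPneg libraries held 19.2 M to 19.7 M counts and the YFPpos libraries 20.7 M to 23 M (M, 1000000). Levels are counts per 1000000 scaled by the TMM method (CPM), given for YFPneg replicates 1 and 2 and YFPpos replicates 1 to 3 in that order. Unmapped reads made up 3.44% to 4.41% of the YFPneg and 6.44% to 8.35% of the YFPpos libraries, and multimapping reads 21.5% to 22% and 24.3% to 24.9%. These shares moved with the sort, and their part in the results below was not tested. The 9 measured CD4 T cell markers added up to 4100 to 4290 CPM in YFPneg cells and 3510 to 4130 CPM in YFPpos cells, with none at 0.

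The sort can be read from Ifng itself (ENSMUSG00000055170, chromosome 10, 118441046 to 118445892, GRCm38). Its 42.2 and 25.4 CPM in the YFPneg libraries stood against 671, 611 and 929 CPM in the YFPpos libraries, and naive cells had 0.0623 ± 0.108 CPM (SD, n = 3). All YFPpos libraries lay above both YFPneg libraries, and the log2 fold change of 4.45 (SE 0.40) was the largest positive one among the non-overlapping genes whose mean log2 CPM reached 3. The ratio of the group means was 21.8, and Ifng was above its naive level in both YFPneg libraries. Tbx21 encodes T-bet, the master regulator of Th1 cells (ENSMUSG00000001444, chromosome 11, 97098071 to 97115331). Its level was 271 and 258 CPM in YFPneg and 297, 286 and 258 CPM in YFPpos libraries, and the groups overlapped. The difference of 0.08 (SE 0.07) on the log2 scale, with a 95% interval from -0.06 to 0.22, did not pass the test.

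Of the 12343 genes tested, 5585 (45.2%) passed an adjusted p of 0.05 in edgeR's quasi-likelihood test. 2955 genes (23.9%) were higher and 2630 (21.3%) lower in YFPpos cells, and 625 and 618 of these changed by at least 2-fold. The median log2 fold change over all genes was 0.04 and the median absolute one 0.33, so most differences were small. YFPpos libraries lay above both YFPneg libraries for 4324 genes (35.0%) and below both for 3667 (29.7%). Counts of list members below are to be read against these shares. In bulk samples, fewer cells of a type and less RNA per cell cannot be told apart. At the lowest counts, 47 of the higher genes had no count in either YFPneg library, and 2 of the lower genes none in any YFPpos library. Of those 2, Ccr9, a gut-homing chemokine receptor, had 19 counts in the YFPneg group. It was 10.9-fold lower in YFPpos cells when 3 counts over all YFPpos libraries were taken as the floor. The lower limit of the 95% counting interval for this fall, which covers counting error only, was 8-fold.

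**Figure D1:**
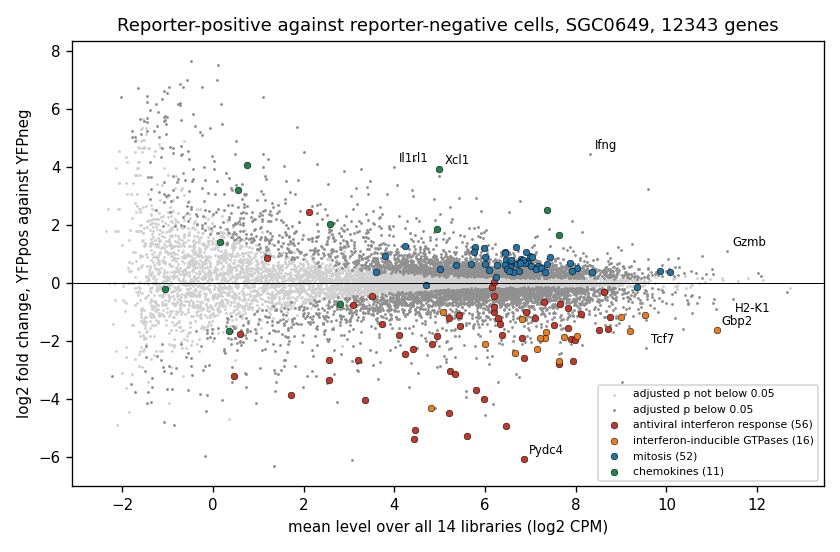
Log2 fold change of each tested gene (vertical axis, YFPpos against YFPneg cells with SGC0649) against its mean level over all 14 libraries (horizontal axis, log2 CPM), with members of 4 gene lists coloured. Antiviral genes and interferon-inducible GTPases lie below 0 with 51 of 56 and 16 of 16 members called lower, and mitosis genes above 0 with 48 of 52 called higher.

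The widest differences among lower genes were in targets of interferon. Of 60 genes of the antiviral interferon response, 56 were tested: 51 were lower in YFPpos cells and 1 was higher, with a median log2 fold change of -1.79 against 0.04 for all genes. Of 17 interferon-inducible GTPases, 16 were tested and all 16 were lower, with a median of -1.86. These were also the lists with the most members past 2-fold, 44 of 56 and 16 of 16. Both lists were thus higher in the cells with less Ifng transcript.

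The members with the widest gaps were led by pyrin domain proteins encoded next to the interferon-inducible p200 genes and by the oligoadenylate synthetase family. Pydc4 (chromosome 1, 173566283 to 173599274) stood at 74.8 and 94.7 CPM in the YFPneg libraries and at 1.26, 1.24 and 1.25 CPM in the YFPpos libraries, a log2 fold change of -6.07 (SE 0.19). Pydc3, its neighbour in name and sequence, had 56.8 and 75.5 against 1.48, 2.06 and 2.86 CPM and a log2 fold change of -4.95 (SE 0.20). Reads shared by such close copies can be split between them by the counting. Oas2 (chromosome 5, 120730333 to 120749853), which makes the second messenger that activates RNase L, went from 51.7 and 75 CPM to 1.22, 1.82 and 1.77 CPM, with -5.30 (SE 0.22) on the log2 scale. Oasl2, a relative of the same family, had 32.9 and 60.1 against 0.868, 1.34 and 1.08 CPM and -5.41 (SE 0.26). In each of these genes the highest YFPpos library was far below the lowest YFPneg library.

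Ifit3, a member of the family that binds viral RNA (chromosome 19, 34583531 to 34588731), stood at 77.3 and 104 CPM in YFPneg and 3.65, 3.87 and 4.50 CPM in YFPpos libraries, with -4.50 (SE 0.21) on the log2 scale. Its close copy Ifit3b, with which it can share reads, had a log2 fold change of -4.05 (SE 0.21), and Ifit1 one of -3.15 (SE 0.19). Ifit1bl1, of the same family but outside the list, had -4.20 (SE 0.11). Rtp4, an interferon-induced chaperone of receptors, had 34 and 45 against 0.738, 0.813 and 1.86 CPM and -5.10 (SE 0.25). Ddx60, a helicase of the RNA sensing pathway that was also outside the list, had 37.8 and 38.1 against 2.34, 1.96 and 1.34 CPM and -4.33 (SE 0.30).

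The regulators that carry the interferon signal to these genes were lower as well. Irf7, the factor that amplifies type I interferon, stood at 92.9 and 113 CPM in YFPneg and 6.16, 7.17 and 5.75 CPM in YFPpos libraries, with -4.02 (SE 0.15) on the log2 scale. Stat2, a subunit of the type I interferon factor ISGF3, had 275 and 284 against 99.6, 108 and 96.8 CPM and -1.46 (SE 0.07). Among other members, the RNA sensors Ddx58 and Ifih1 had -1.92 (SE 0.09) and -1.10 (SE 0.12), the schlafens Slfn5 and Slfn8 -3.69 (SE 0.12) and -2.59 (SE 0.10), and Isg15, the ubiquitin-like modifier, -2.45 (SE 0.17). Samhd1, which destroys deoxynucleotides and limits retroviruses, is no member of the list and was lower too, with 1974 and 2019 CPM in YFPneg and 747, 692 and 557 CPM in YFPpos libraries. Ifitm3, which blocks virus entry and is also no member, went the other way. It was higher in YFPpos cells, with 1.66 on the log2 scale.

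A few members departed from the rest. Ifi204, of the p200 cluster, was higher in YFPpos cells at a low level, with 0.356 and 0.257 CPM in YFPneg and 2.78, 1.20 and 1.04 CPM in YFPpos libraries and 2.43 (SE 0.63) on the log2 scale. That value was 1.84 without YFPpos replicate 1. The members that did not pass the test were Usp18, Bst2, Mnda and Tor3a. Usp18, the protease that removes ISG15 and damps the type I receptor, stood at 77.8 and 74.2 CPM in YFPneg and 87.4, 78.7 and 63.5 CPM in YFPpos libraries, with the groups overlapping. Bst2, also called tetherin, stood at 75.3 and 89.1 and 66.8, 74.5 and 78.9 CPM. These genes were named after their values were seen.

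The GTPases are among the most abundant transcripts of this set. Gbp2, which coats vacuoles that hold microbes (chromosome 3, 142620602 to 142638008), stood at 3598 and 3494 CPM in YFPneg and 1251, 1224 and 915 CPM in YFPpos libraries, with -1.65 (SE 0.10) on the log2 scale and an edgeR adjusted p of 1.3e-09. Naive cells had 103 ± 5.30 CPM (SD, n = 3). Gbp9 had 319 and 349 against 50.1, 52.8 and 50.8 CPM and -2.70 (SE 0.09), and Gbp10 63.5 and 70.2 against 3.25, 4.16 and 2.64 CPM and -4.32 (SE 0.19). Of the immunity-related GTPases, Igtp had 1168 and 1227 against 563, 572 and 521 CPM and -1.12 (SE 0.06), and Irgm1, a regulator of the others, 425 and 448 against 121, 126 and 120.4 CPM and -1.83 (SE 0.08). In all 16 members the YFPpos libraries lay below both YFPneg libraries. Gbp6, Gbp10 and other members are near copies of each other, and reads they share make the separate values uncertain.

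Promoters of these genes were searched for the letters that interferon-activated factors are known to bind. RefSeq promoter windows of 300 bases (build GRCm38.p6, 250 before to 50 after each start) were found for 9413 of the tested genes, 42 of the 56 antiviral genes and 9 of the 16 GTPases. The core of the interferon-stimulated response element, GAAA followed after any 2 bases by another GAAA, was searched on both strands. A gene counted once, as a match if any of its windows held the letters. The core stood in all 9 GTPases and in 20 of 42 antiviral genes (47.6%). It stood in 3.85% of the tested genes with a window and in 3.99% of all 27025 genes in the table. TTCNNNGAA, the core of the gamma-activated sequence, reads the same on both strands. It stood in 6 of 9 GTPases (66.7%), 7 of 42 antiviral genes (16.7%) and 8.46% of the tested genes with a window. The motifs may overlap, a match is a description of the letters only, and no match says only that these letters are not in this window. Among the antiviral genes with the widest gaps, the Oasl2 window held no match to the interferon-stimulated core, while those of Ifit3 and Ifit3b each held a pair. Ifit3 is shown as an antiviral gene with a pair of matches, and Gbp2 and Igtp as the GTPases with the highest CPM in YFPneg cells. These genes were picked after their matches or values were seen. The windows are given 5′ to 3′ with matches to either motif on either strand in capitals (only Igtp held TTCNNNGAA), at chr19:34583279-34583578, chr3:142620413-142620712 and chr11:58199306-58199605, all on the plus strand.
Ifit3: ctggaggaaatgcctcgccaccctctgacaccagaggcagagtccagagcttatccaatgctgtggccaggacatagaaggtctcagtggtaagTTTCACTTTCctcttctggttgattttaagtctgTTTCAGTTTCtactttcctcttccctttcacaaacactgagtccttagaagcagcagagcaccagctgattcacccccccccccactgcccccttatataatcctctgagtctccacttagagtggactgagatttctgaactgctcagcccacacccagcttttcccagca
Gbp2: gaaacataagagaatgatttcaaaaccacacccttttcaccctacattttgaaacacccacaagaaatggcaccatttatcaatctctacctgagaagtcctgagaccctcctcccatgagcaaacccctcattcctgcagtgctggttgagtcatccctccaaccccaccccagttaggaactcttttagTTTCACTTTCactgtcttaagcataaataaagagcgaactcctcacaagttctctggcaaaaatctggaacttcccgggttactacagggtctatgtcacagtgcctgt
Igtp: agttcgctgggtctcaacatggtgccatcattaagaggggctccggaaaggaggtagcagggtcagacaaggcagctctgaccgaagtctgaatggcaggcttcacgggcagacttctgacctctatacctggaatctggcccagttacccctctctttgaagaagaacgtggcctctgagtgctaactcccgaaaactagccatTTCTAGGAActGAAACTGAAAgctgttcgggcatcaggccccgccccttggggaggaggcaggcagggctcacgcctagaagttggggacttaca

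The receptor and signal of interferon-gamma itself followed the same direction. Of 13 members, 10 were lower and 1 higher in YFPpos cells, with a median log2 fold change of -0.66. Ifngr2, the signalling chain of the receptor, stood at 26.3 and 32.4 CPM in YFPneg and 6.47, 5.69 and 7.27 CPM in YFPpos libraries, with -2.18 (SE 0.14) on the log2 scale. Ifngr1, the ligand-binding chain, had 513 and 421 against 314, 243 and 182 CPM and -0.92 (SE 0.15). The kinases Jak1 and Jak2 had -0.55 (SE 0.06) and -0.66 (SE 0.09). Irf1, an early interferon target, had 713 and 818 against 285, 289 and 262 CPM and -1.46 (SE 0.08). The feedback inhibitor Socs3 had -1.34 (SE 0.10). All these genes had no overlap between the groups.

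Irf8 was the exception. This interferon-inducible factor stood at 300.1 and 314 CPM in YFPneg and 406, 437 and 475 CPM in YFPpos libraries, so all YFPpos libraries were higher, with 0.52 (SE 0.07) on the log2 scale. The phosphatases Ptpn2 and Ptpn11 did not pass the test.

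Class I antigen presentation was lower throughout. Of 19 genes, 18 were tested and 18 were lower in YFPpos cells, 6 of them by at least 2-fold, with a median log2 fold change of -0.86. H2-K1, a classical heavy chain and one of the most abundant transcripts, stood at 3047 and 3527 CPM in YFPneg and 1494, 1450.2 and 1402 CPM in YFPpos libraries, with -1.18 (SE 0.07) on the log2 scale. B2m, the light chain, had 2947 and 2792 against 1540.0, 1519 and 1514 CPM and -0.91 (SE 0.07). Nlrc5, the transactivator of these genes, had -0.88 (SE 0.06), the peptide transporter Tap1 -0.84 (SE 0.07) and its partner Tapbp -1.22 (SE 0.07). Among the nonclassical genes, H2-Q7 had 507 and 612 against 179, 174 and 165 CPM and -1.69 (SE 0.10). The heavy chain genes are close copies that can share reads, so their separate values are uncertain.

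**Figure D2:**
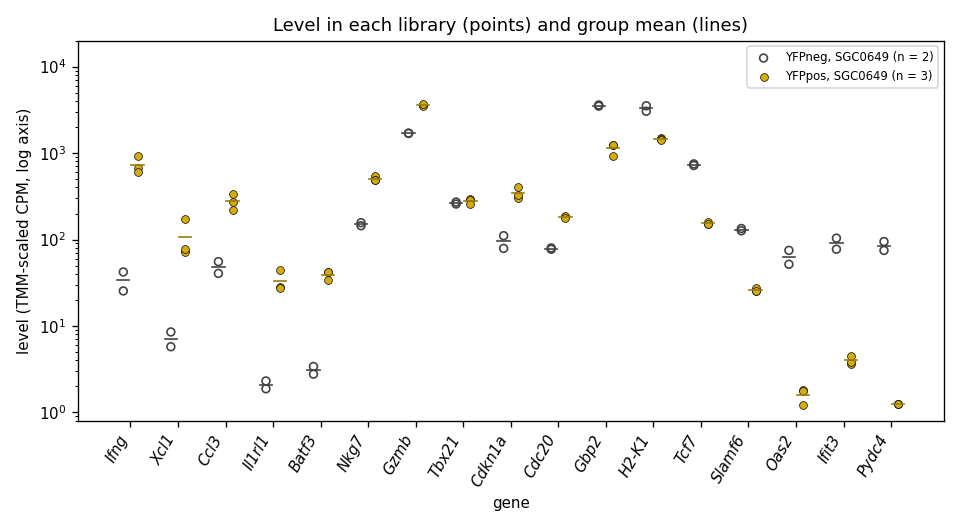
Level of 17 named genes (horizontal axis) in each library, as TMM-scaled CPM on a log axis, with open points for the 2 YFPneg libraries, filled points for the 3 YFPpos libraries and lines for the group means. The groups overlap for Tbx21 and are apart for the other 16 genes, with means more than 10-fold apart for Ifng, Xcl1, Il1rl1, Batf3, Oas2, Ifit3 and Pydc4.

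Secreted and membrane-bound ligands were mostly higher in producers. Of 16 chemokines, 11 were tested, 7 were higher and 1 was lower in YFPpos cells, with a median log2 fold change of 1.85. Of 29 cytokines other than Ifng, 26 were tested, 15 were higher and 2 lower, with a median of 0.95. A low gene can pass the count filter through the group in which it is high. These counts and medians therefore only describe the members that passed. Xcl1, the ligand of cross-presenting dendritic cells (chromosome 1, 164931644 to 164935527), stood at 8.53 and 5.76 CPM in YFPneg and 72.2, 77.5 and 174 CPM in YFPpos libraries, with 3.92 (SE 0.42) on the log2 scale. YFPpos replicate 3 was well above the others. Ccl3 had 55.5 and 40.6 against 271, 219.7 and 336 CPM and 2.52 (SE 0.22). Ccl4, an inflammatory chemokine like Ccl3, had 107 and 77.7 against 296, 249.7 and 314 CPM and 1.64 (SE 0.14). Ccl5, another inflammatory chemokine, was lower in level, with 4.32 and 3.96 against 22.6, 13.7 and 8.65 CPM and 1.85 (SE 0.36).

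Among cytokines, members tied to other helper fates were higher too. Il10, the anti-inflammatory cytokine, stood at 1.07 and 0.668 CPM in YFPneg and 11.4, 7.70 and 5.84 CPM in YFPpos libraries, with 3.25 (SE 0.40) on the log2 scale. Il24, an IL-10 relative, had 2.85 and 1.34 against 19.7, 21.1 and 30.2 CPM and 3.50 (SE 0.51), or 4.14 without YFPneg replicate 1. Il3, a growth factor of blood cells, had 0.559 and 0.822 against 10.1, 9.70 and 16.1 CPM and 4.11 (SE 0.74). Il13, a Th2 cytokine, had 0.102 and 0.617 against 3.38, 5.40 and 2.47 CPM and 3.36 (SE 0.63). Without YFPneg replicate 1 its log2 fold change was 2.59 and without replicate 2 it was 5.12. In each of these genes every YFPpos library lay above both YFPneg libraries.

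The death ligands Fasl and Tnfsf10 (TRAIL) had 21.8 and 13.4 against 40.8, 39.1 and 44.6 CPM and 38.7 and 33.1 against 87.2, 78.1 and 93.6 CPM, with 1.24 (SE 0.18) and 1.27 (SE 0.14) on the log2 scale. Tnf and Il2 did not pass the test. Tnf stood at 69 and 82.6 CPM in YFPneg and 76.6, 82.3 and 108 CPM in YFPpos libraries, and Il2 at 4.01 and 1.70 and 2.26, 3.20 and 5.93 CPM, with the groups overlapping in both. Ltb, which builds lymphoid tissue, was lower, with 465 and 563 against 269, 257 and 253 CPM and -0.99 (SE 0.08), as was Il16, with -0.74 (SE 0.09).

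Per kilobase of exon and 1000000 counts (RPKM), Ifng was the highest of 21 ligand genes in YFPpos cells, at 569 ± 130 (SD, n = 3). Ccl4 followed at 434 ± 50.5 (SD, n = 3) RPKM and Ccl3 at 360 ± 76.2 (SD, n = 3), and their ranges overlapped with each other and, for Ccl4, with that of Ifng. Xcl1 stood at 206 ± 110 (SD, n = 3), Ltb at 171 ± 5.48 (SD, n = 3) and Lta at 151 ± 68 (SD, n = 3) RPKM, again with overlapping ranges. In YFPneg cells Ltb was highest, at 339 ± 45.8 (SD, n = 2), followed by Ccl4 at 140 ± 30.9, and Ifng stood at 26.1 ± 9.14 RPKM.

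Receptors that feed the Th1 programme differed by receptor. The IL-12 and IL-18 pathway list of 11 genes also holds the IL-33 receptor gene. Of its members, 6 were higher and 1 was lower in YFPpos cells, with a median log2 fold change of 0.31. Only the IL-33 receptor gene was past 2-fold. Il1rl1 encodes ST2, the receptor of IL-33, and stood at 1.88 and 2.31 CPM in YFPneg and 28.5, 27.2 and 44.8 CPM in YFPpos libraries, with 4.00 (SE 0.33) on the log2 scale. Il18r1 and Il18rap, the chains of the IL-18 receptor, had 0.53 (SE 0.10) and 0.62 (SE 0.14). Il12rb1, the chain shared by the IL-12 and IL-23 receptors, was lower, with 187 and 213 against 135, 137 and 133 CPM and -0.57 (SE 0.10). Il12rb2, its IL-12-specific partner, had 685 and 530.4 against 955, 871 and 734 CPM and 0.49 (SE 0.12), which did not pass without YFPneg replicate 2 (0.32, edgeR adjusted p 0.093).

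Of 21 other cytokine receptors tested, 4 were higher and 11 lower in YFPpos cells, with a median of -0.47. Il2ra, the high-affinity IL-2 chain, stood at 1494 and 1406 CPM in YFPneg and 2826, 2748 and 2735 CPM in YFPpos libraries, with 0.93 (SE 0.14) on the log2 scale, and Il2rb had 0.48 (SE 0.11). Tgfbr2, the signalling receptor of TGF-beta, had 188 and 183 against 83.1, 75.3 and 84.2 CPM and -1.20 (SE 0.07). Il6ra, Il6st and Il27ra, which receive IL-6 and IL-27, had -1.44 (SE 0.10), -0.67 (SE 0.06) and -0.91 (SE 0.08), and Ifnar1, of the type I interferon receptor, had -0.85 (SE 0.07).

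Of 13 chemokine receptors tested, 5 were higher and 3 lower, with a median of 0.48. Cxcr6, a receptor of tissue-homing T cells, stood at 4.27 and 2.88 CPM in YFPneg and 22, 13.9 and 15.3 CPM in YFPpos libraries, with 2.26 (SE 0.27) on the log2 scale. Ccr2, a receptor of inflammatory chemokines, had 1.37 (SE 0.21). Ccr7, which leads cells to lymph nodes, had 819.9 and 845 against 609, 664 and 617 CPM and -0.40 (SE 0.07). Cxcr3, the classical Th1 receptor, overlapped between the groups at 12.7 and 7.91 and 8.07, 8.65 and 11.9 CPM and did not pass the test.

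The transcription factors around T-bet moved unevenly. Of 17 Th1 factors, 10 were higher and 2 lower in YFPpos cells, with a median of 0.28. Batf3, an AP-1 family factor, stood at 3.40 and 2.77 CPM in YFPneg and 41.7, 34 and 42.4 CPM in YFPpos libraries, with 3.67 (SE 0.35) on the log2 scale. Runx2 had 24.7 and 13.7 against 66.3, 44.4 and 50.9 CPM and 1.49 (SE 0.25), while its relative Runx1 went the other way, with 72.6 and 80.7 against 24.7, 33.4 and 28.6 CPM and -1.41 (SE 0.11). Zeb2 and Bhlhe40, factors of effector cells, had 0.93 (SE 0.14) and 0.74 (SE 0.11). Eomes, the T-box relative of T-bet, stood at 128 and 159 CPM in YFPneg and 75.6, 112 and 165 CPM in YFPpos libraries. Its groups overlapped and -0.29 (SE 0.25) did not pass the test, but without YFPpos replicate 3 its log2 fold change was -0.63 (edgeR adjusted p 0.0306).

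The defining factors of other helper fates were lower, while lists of their genes were mixed. Gata3, the Th2 regulator, stood at 35.8 and 25.5 CPM in YFPneg and 20.3, 15.6 and 18.5 CPM in YFPpos libraries, with -0.76 (SE 0.14) on the log2 scale, whereas 8 of 14 tested Th2 genes were higher and 2 lower. Those higher included Il1rl1, Il24, Il13 and Nfil3, a leucine zipper factor at 1.06 (SE 0.18). Foxp3, which defines regulatory T cells, had 28.3 and 32.4 against 11.9, 15.7 and 21.1 CPM and -0.90 (SE 0.22), and of 14 tested genes of regulatory T cells 6 were higher and 3 lower. Bcl6, the factor of follicular helper cells, had 32.1 and 22.8 against 16.7, 10.7 and 9.17 CPM and -1.17 (SE 0.20), with 6 of 15 genes of that list higher and 7 lower. Of 10 Th17 genes, 4 were higher and 1 lower, and the 4 became 1, 2 and 2 without YFPneg replicate 1, YFPneg replicate 2 and YFPpos replicate 1. The lists share members, so their counts are not independent.

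The programme of naive and memory-like cells was lower in producers. Of 22 transcription factors of naive cells, 19 were lower and 1 was higher, with a median of -0.58. Tcf7, which encodes TCF-1 (chromosome 11, 52252371 to 52283014), stood at 749.8 and 719 CPM in YFPneg and 151, 158 and 151 CPM in YFPpos libraries, with -2.26 (SE 0.07) on the log2 scale and an edgeR adjusted p of 9.9e-13. Naive cells had 1939 ± 49.8 CPM (SD, n = 3), above every cultured library. Lef1, its relative, had 268 and 277 against 148, 148 and 139.9 CPM and -0.91 (SE 0.07). Klf2, which keeps cells circulating, had 93.9 and 105 against 26.7, 21.9 and 13.3 CPM and -2.27 (SE 0.18), and Klf3 had -1.84 (SE 0.09). Myb and Bach2, which restrain effector fates, had -1.18 (SE 0.11) and -0.69 (SE 0.07). Klf6 was the member that was higher, with 203 and 181 against 278, 319 and 323 CPM and 0.68 (SE 0.07).

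Of 15 genes of homing, egress and survival, 11 were lower and none higher, with a median of -0.99. S1pr1, the Klf2 target through which cells leave lymph nodes, stood at 210.3 and 208 CPM in YFPneg and 57.9, 48.3 and 38.1 CPM in YFPpos libraries, with -2.12 (SE 0.11) on the log2 scale. Cd27, a costimulatory receptor of early-stage T cells, had 235 and 238 against 107, 98.9 and 90.6 CPM and -1.26 (SE 0.07). Actn1 and Dapl1, genes of naive cells, had -1.57 (SE 0.09) and -2.27 (SE 0.26). Il7r, the IL-7 receptor, overlapped at 157 and 107 and 226, 162 and 108 CPM and did not pass the test, but did without YFPpos replicate 3 (0.54, edgeR adjusted p 0.00916).

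Igfbp4 and Gimap3, among the most abundant of the genes that changed by 2-fold or more, were lower as well. Igfbp4, which binds insulin-like growth factors, stood at 1209 and 1279 CPM in YFPneg and 524, 535 and 469 CPM in YFPpos libraries. Gimap3, a GTPase of lymphocyte survival, had 1209 and 1189 against 569.8, 524 and 460.5 CPM. Their log2 fold changes were -1.29 (SE 0.09) and -1.21 (SE 0.08), and that of Hmha1, a RhoGAP of blood cells, was -1.05 (SE 0.11).

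Cytotoxic genes were higher in part. Of 22 granule genes, 12 were higher and none lower in YFPpos cells, with a median of 0.70, and the 12 became 7 without YFPneg replicate 2. Gzmb, the main granzyme (chromosome 14, 56258838 to 56262260), stood at 1702 and 1686 CPM in YFPneg and 3584, 3502 and 3745 CPM in YFPpos libraries, with 1.09 (SE 0.13) on the log2 scale. Nkg7, needed for granule release, had 157 and 144 against 549, 482 and 489 CPM and 1.75 (SE 0.16). Serpinb6b and Serpinb9, inhibitors that protect the cell from its own proteases, had 1.32 (SE 0.13) and 0.70 (SE 0.15). Prf1, the pore-forming protein, had 23.2 and 16.6 against 47, 27.1 and 22.6 CPM with overlapping groups, and its 0.70 (SE 0.23) lost the call without YFPneg replicate 2 (0.48, edgeR adjusted p 0.207) and without YFPpos replicate 1 (0.32, edgeR adjusted p 0.103). With only the SGC0649 libraries in the fit it had 0.66 (edgeR adjusted p 0.0978). Gzma, at 5.08 and 1.59 and 7.90, 3.25 and 6.79 CPM, did not pass the test, but did without YFPneg replicate 1 (1.91, edgeR adjusted p 0.0323).

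Of 21 lectin receptors of natural killer (NK) cells, 12 were tested and 9 of these were higher, with a median of 2.50. The 9 became 3 without YFPneg replicate 2. Low genes can pass the count filter through the group in which they are high, so this count and median only describe the members that passed. Klrk1, which encodes the activating receptor NKG2D, stood at 9.80 and 4.11 CPM in YFPneg and 73.9, 47.7 and 37.6 CPM in YFPpos libraries, with 2.93 (SE 0.38) on the log2 scale, or 3.69 without YFPneg replicate 1. Klrc1, the inhibitory receptor NKG2A, had 16.9 and 4.68 against 86.9, 47.3 and 44.2 CPM and 2.46 (SE 0.36), with 3.67 and 1.82 without YFPneg replicates 1 and 2. In both genes replicate 1 was the highest library of each group. The 8 defining markers of NK cells summed to 130 and 161 CPM in the YFPneg cells and 78.8 to 167 CPM in the YFPpos cells, nearly all of it Eomes. Of the 8, 4 and 5 were at 0 in the YFPneg libraries and 2, 3 and 2 in the YFPpos libraries. Ncr1, Klrb1c and Klra8 were at 0 in both YFPneg libraries. Their highest YFPpos levels were 0.175, 0.0871 and 0.0435 CPM.

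Other markers were low. B cell markers summed to 0.364 to 1.74 CPM over the 5 libraries, with Ebf1 the only one called higher, on 46 against 3 counts (ratio 8.95, 95% counting interval 2.88 to 45.0). The Ebf1 call was lost without YFPneg replicate 1 (edgeR adjusted p 0.127), YFPneg replicate 2 (0.0715) or YFPpos replicate 2 (0.0536). The remaining sums were low too: 4.79 to 9.63 CPM for CD8 markers and 0.152 to 0.581 CPM for the 2 measured markers of gamma-delta and NKT cells. Myeloid and dendritic cell markers summed to 38.6 and 37.1 CPM in YFPneg and 33.9 to 47.3 CPM in YFPpos libraries, with 11 to 15 of 25 entries at 0. Red cell and platelet markers summed to 1.78 to 3.85 CPM. T cell receptor constant genes and immunoglobulin genes were not analysed here. Among single markers, Mpeg1, the macrophage perforin, was lower in YFPpos cells, with 5.94 and 5.76 against 0.391, 0.526 and 0.389 CPM. Cebpb, a factor of myeloid cells, was higher, with 11.3 and 13.9 against 21.5, 22.4 and 17 CPM and 0.69 (SE 0.26) on the log2 scale. It lost the call without YFPneg replicate 1 (0.55, edgeR adjusted p 0.225) or 2 (0.84, 0.0702) and without YFPpos replicate 1 (0.64, 0.083) or 2 (0.61, 0.106). Of 4 tested Y-linked genes, Kdm5d and Ddx3y were lower, each with -0.70, and were detected in all 5 libraries.

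Costimulatory and inhibitory receptors split evenly. Of 24 members, 9 were higher and 10 lower in YFPpos cells, with a median of 0.04. Havcr2, the gene of the inhibitory receptor TIM-3, stood at 3.76 and 1.75 CPM in YFPneg and 36.5, 21.2 and 18 CPM in YFPpos libraries, with 3.19 (SE 0.37) on the log2 scale, or 3.85 without YFPneg replicate 1. Icos, which sustains effector cells, had 317 and 278 against 431, 447 and 452 CPM and 0.58 (SE 0.07). Slamf6, a receptor of progenitor-like T cells (chromosome 1, 171917515 to 171953170), went the other way, with 134 and 126 against 25.2, 27.3 and 25.5 CPM and -2.32 (SE 0.09). Cd274, the interferon-induced ligand PD-L1, had 231 and 239 against 87, 86.1 and 106 CPM and -1.34 (SE 0.12). Cd5 and Cd6, which dampen receptor signals, had -0.57 (SE 0.06) and -0.37 (SE 0.05). Lag3 overlapped between the groups at 215 and 187 and 229.9, 169.7 and 133 CPM and did not pass the test; without YFPpos replicate 1 it had -0.41 (edgeR adjusted p 0.0215).

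Of 16 members of the TNF receptor superfamily, 5 were higher and 5 lower, with a median of 0.24. Tnfrsf9, the gene of 4-1BB, stood at 467 and 418 CPM in YFPneg and 693, 657 and 729.6 CPM in YFPpos libraries, with 0.65 (SE 0.08) on the log2 scale. Tnfrsf8, the gene of CD30, had 2.61 (SE 0.40), or 3.36 without YFPneg replicate 1. Tnfrsf14, a ligand of the inhibitory receptor BTLA, had 71.6 and 78.1 against 29.2, 25.5 and 25 CPM and -1.49 (SE 0.09).

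Early targets of receptor signals were lower in more members than were higher. Of 24 members, 13 were lower and 2 higher in YFPpos cells, with a median of -0.32. Nr4a1, a reporter gene of receptor signal strength, stood at 426 and 498 CPM in YFPneg and 192, 205 and 223 CPM in YFPpos libraries, with -1.16 (SE 0.07) on the log2 scale. Jun, an AP-1 subunit, had 329 and 367 against 157, 146 and 129 CPM and -1.27 (SE 0.09), and Egr1 had -0.88 (SE 0.07). Cd69, the early activation marker, had 175 and 182 against 73.1, 90.1 and 121 CPM and -0.91 (SE 0.16). Myc, also in this list, stood at 407 and 434 and 398, 427 and 456 CPM with overlapping groups and did not pass the test.

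Of 25 genes of the receptor machinery, 11 were lower and 1 higher, with a median of -0.12. Themis, a signalling adaptor, was the one that was higher, with 121 and 97 against 260.3, 245 and 266 CPM and 1.24 (SE 0.13). Dgka, a kinase that ends diacylglycerol signals, had 726 and 702 against 387, 354 and 314 CPM and -1.02 (SE 0.08). Of 23 genes of integrins and adhesion, 4 were higher and 8 lower. Cd44, the receptor of hyaluronan that marks activated cells, had 81.8 and 61.6 against 147, 140.5 and 188 CPM and 1.15 (SE 0.14), while Itga4 and Itgb7, the chains of the gut-homing integrin, had -1.24 (SE 0.10) and -1.17 (SE 0.11).

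**Figure D3:**
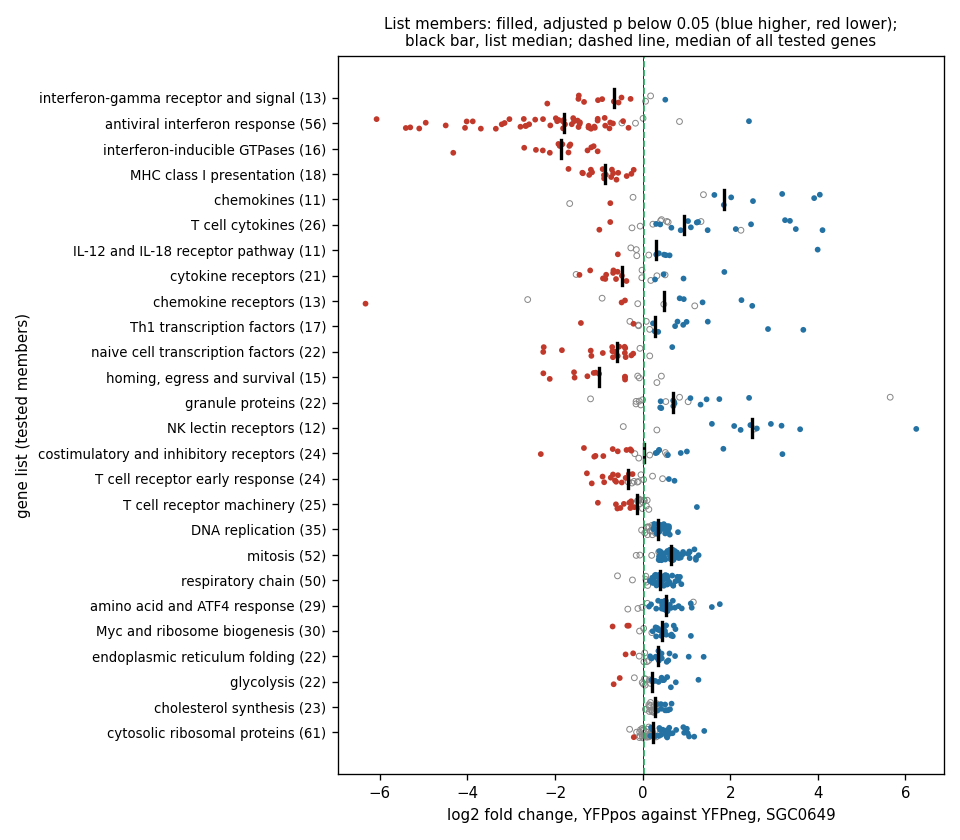
Log2 fold change of every tested member of 26 gene lists (horizontal axis, YFPpos against YFPneg with SGC0649; one row per list, number of tested members in brackets). Filled points passed an adjusted p of 0.05 and black bars are list medians, which run from -1.86 for interferon-inducible GTPases to 2.50 for NK lectin receptors around the median of all genes at 0.04 (dashed line).

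Genes of cell division were higher in producers, by small amounts in nearly all members. Of 52 genes of mitosis, 48 were higher and none lower, with a median of 0.65, and the YFPpos libraries lay above both YFPneg libraries in 50. Cdc20, the activator of the anaphase-promoting complex, stood at 77.3 and 80.0 CPM in YFPneg and 184, 188 and 177 CPM in YFPpos libraries, with 1.22 (SE 0.10) on the log2 scale. Birc5, the gene of survivin, had 109.8 and 107 against 213, 206 and 200.4 CPM and 0.93 (SE 0.06). Aurka, Ube2c and Cdk1, which drive entry into and exit from mitosis, had 1.18 (SE 0.08), 1.08 (SE 0.08) and 0.87 (SE 0.07). The most abundant members changed less: Top2a and Mki67 had 0.38 (SE 0.07) and 0.41 (SE 0.06). The 4 that did not pass were Cenpm, Smc4, Plk4 and Pttg1.

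CCAAT, the letters bound by NF-Y, was found on either strand in 34 of 45 mitosis genes with a window (75.6%). Of all tested genes with a window, 43.0% held it. It stood in 11 of 16 class I presentation genes (68.8%), a list that was lower in YFPpos cells. The shares were 40.5% for antiviral genes and 22.2% for GTPases. The interferon-stimulated core stood in 4 of the 45 mitosis genes (8.89%). The Cdc20 window is shown as an example, picked after its values were seen, of a promoter with a pair of matches, in capitals (chr4:118437294-118437593, minus strand, GRCm38.p6, RefSeq).
Cdc20: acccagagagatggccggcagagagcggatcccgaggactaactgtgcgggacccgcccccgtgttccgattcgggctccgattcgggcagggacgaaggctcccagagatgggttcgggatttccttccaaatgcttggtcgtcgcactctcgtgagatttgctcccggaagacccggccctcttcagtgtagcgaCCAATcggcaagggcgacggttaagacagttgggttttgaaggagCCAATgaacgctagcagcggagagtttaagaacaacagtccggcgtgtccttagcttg

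Of 35 genes of DNA replication, 24 were higher and none lower, with a median of 0.35 and no member past 2-fold. Rrm2, a subunit of ribonucleotide reductase, stood at 324 and 311 CPM in YFPneg and 475, 473 and 498 CPM in YFPpos libraries, with 0.60 (SE 0.07) on the log2 scale, and Tk1, thymidine kinase, had 0.62 (SE 0.08). The helicase subunit Mcm2 had 301 and 342 against 347, 361 and 381 CPM, and 0.17 (SE 0.09) did not pass the test. Among cyclins, kinases and inhibitors, 10 of 23 were higher and 4 lower. Cdkn1a, the inhibitor p21, had 79 and 111 against 304, 327 and 403 CPM and 1.86 (SE 0.14), while Cdkn1b, the inhibitor p27 of resting cells, had 164 and 154 against 86.9, 77.3 and 64.2 CPM and -1.06 (SE 0.11).

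Cdkn1a is also a target of p53. Of 22 p53 targets, 13 were higher and 5 lower in YFPpos cells, with a median of 0.51. Perp, a membrane protein of the death programme, stood at 9.25 and 5.04 CPM in YFPneg and 30.2, 32.3 and 32.1 CPM in YFPpos libraries, with 2.14 (SE 0.24) on the log2 scale, and Zmat3 and Plk2 had 1.03 (SE 0.11) and 1.53 (SE 0.19). Sesn1 and Btg2 went the other way, with -1.30 (SE 0.09) and -0.85 (SE 0.07). Of 17 genes of the BCL2 family, 6 were higher and 2 lower. Bcl2l1, the survival gene of BCL-XL, had 44 and 52.2 against 81, 96.7 and 130.1 CPM and 1.09 (SE 0.15). Pmaip1, the death gene of NOXA, had 40.7 and 28.3 against 85.5, 73.2 and 70.3 CPM and 1.14 (SE 0.18). Mcl1, another survival gene, had 774 and 762 against 488, 465 and 455 CPM and -0.71 (SE 0.06).

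Genes of mitochondria, amino acid supply and ribosome biogenesis were higher in most list members too. Of 50 nuclear-encoded genes of the respiratory chain, 44 were higher and none lower, with a median of 0.40. Uqcrq, of complex III, stood at 60.7 and 63.6 CPM in YFPneg and 107, 110.0 and 111 CPM in YFPpos libraries, with 0.82 (SE 0.07) on the log2 scale, and Sdhd, of complex II, had 0.79 (SE 0.07). Among mitochondrially encoded genes, 3 stood apart. mt-Co3 had 1.32 and 1.80 against 34.5, 24.3 and 28.5 CPM and 4.22 (SE 0.62), mt-Co2 3.38 (SE 0.54) and mt-Atp6 3.94 (SE 0.63). Nuclear copies of mitochondrial sequence share reads with them, so these values are uncertain, and all mitochondrially encoded genes together took 1.41% to 1.65% of YFPneg counts and 1.37% to 1.42% of YFPpos counts. Lars2, the mitochondrial leucine tRNA synthetase, stood at 125 and 69.8 CPM in YFPneg and 1078, 999.5 and 681 CPM in YFPpos libraries, with 3.24 (SE 0.32), and naive cells had 1393 ± 156 CPM (SD, n = 3).

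Of 29 genes of amino acid supply and the ATF4 response, 23 were higher and none lower, with a median of 0.53. Slc7a5, the transporter of large neutral amino acids, stood at 178 and 219 CPM in YFPneg and 394, 426 and 456 CPM in YFPpos libraries, with 1.10 (SE 0.09) on the log2 scale. Asns, asparagine synthetase, had 21.4 and 21.1 against 69.6, 74.9 and 71.9 CPM and 1.76 (SE 0.17), Psat1, of serine synthesis, 0.82 (SE 0.08), and the factor Atf4 itself 0.57 (SE 0.06). Of 30 genes of Myc and ribosome biogenesis, 24 were higher and 3 lower, with a median of 0.45, and the 24 became 15 without YFPneg replicate 1. Gar1, of the pseudouridine-making particles, had 37.6 and 46 against 81.5, 88.8 and 99 CPM and 1.10 (SE 0.13). Mxd1, an antagonist of Myc, was lower, with 408 and 327 against 289, 224 and 173 CPM and -0.69 (SE 0.14).

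Of 61 cytosolic ribosomal protein genes, 32 were higher and 1 lower, with a median of 0.24. Rplp2, a stalk protein, stood at 131 and 170.3 CPM in YFPneg and 317, 286 and 307 CPM in YFPpos libraries, with 1.01 (SE 0.11) on the log2 scale. Many have processed pseudogenes that share reads. Of 22 genes of folding in the endoplasmic reticulum, 15 were higher and 2 lower, with a median of 0.35. Ern1, the stress sensor IRE1, had 22.5 and 18.2 against 55.6, 49.1 and 55.7 CPM and 1.39 (SE 0.14), and Sdf2l1, a chaperone partner, had 1.05 (SE 0.10).

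In glycolysis 11 of 22 genes were higher and 2 lower, with a median of 0.21. Hk2, the inducible hexokinase, stood at 114 and 109 CPM in YFPneg and 278, 262 and 270.5 CPM in YFPpos libraries, with 1.27 (SE 0.11) on the log2 scale, and Ldha, which makes lactate, had 0.49 (SE 0.07). The hypoxia list had 5 of 17 genes higher and 3 lower; Pdk1, which keeps pyruvate out of mitochondria, was lower, with 202 and 214 against 124, 129 and 111 CPM and -0.78 (SE 0.08). Of 23 genes of cholesterol synthesis, 10 were higher and none lower, with a median of 0.29; the 10 became 4 without YFPneg replicate 2 and 18 without YFPpos replicate 3. In fatty acid synthesis 8 of 17 were higher and 1 lower, and the desaturase Scd1 had 22.8 and 14.9 against 85.6, 78.9 and 35.3 CPM and 1.82 (SE 0.31).

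Outside the lists, BC106179 had the largest negative log2 fold change among the non-overlapping genes whose mean log2 CPM over all 14 libraries reached 3. It stood at 5.89 and 7.35 CPM in YFPneg and 0, 0.191 and 0.0865 CPM in YFPpos libraries, so its YFPpos levels were near the floor. Its -6.11 (SE 0.54) became -7.07 without YFPpos replicate 2. Sulf2, an enzyme that trims heparan sulfate, was higher, with 1.63 and 1.70 against 16.9, 13.2 and 18.8 CPM and 3.29 (SE 0.44). Dot1l, the target of the inhibitor that was absent here (chromosome 10, 80755206 to 80795461), stood at 229 and 279.8 CPM in YFPneg and 213, 220.1 and 229.5 CPM in YFPpos libraries with overlapping groups. Its -0.20 (SE 0.07) lost the call without YFPneg replicate 2 (-0.05, edgeR adjusted p 0.626), YFPpos replicate 1 (-0.18, 0.0886) and YFPpos replicate 2 (-0.20, 0.0724), and with only the SGC0649 libraries in the fit (-0.24, 0.0578).

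The same sort was available from cultures with SGC0946, in 6 other libraries. There 6752 genes (54.7%) passed the test, 3321 (26.9%) higher and 3431 (27.8%) lower in YFPpos cells. Of the 5585 genes called with SGC0649, 5458 (97.7%) had the same sign with SGC0946 and 4660 were called in the same direction. 11 were called in the opposite direction. Over all tested genes 83.1% had the same sign. The antiviral list had 53 of 56 members lower with SGC0946, the GTPases 16 of 16, class I presentation 18 of 18, and mitosis 50 of 52 higher, with medians of -1.60, -1.45, -0.73 and 0.84.

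The difference between the compounds was tested directly, as the contrast with SGC0946 minus that with SGC0649. It passed for 142 genes (1.15%), 32 positive and 110 negative, and 1706 had an unadjusted p under 0.05. That count depended on single libraries. It was 61 without YFPneg SGC0649 replicate 1, 76 without YFPneg SGC0649 replicate 2, 71 without YFPpos SGC0649 replicate 2 and 241 without YFPneg SGC0946 replicate 2. Leaving out YFPpos SGC0946 replicates 1, 2 or 3 gave 66, 86 and 78.

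Among the genes called here whose mean log2 CPM over all 14 libraries reached 3, the largest negative value was that of Xcl1. Its log2 fold change was 3.92 with SGC0649 and 1.46 with SGC0946, a difference of -2.46, SE 0.54, edgeR adjusted p 0.032. Foxp3 had -0.90 and -2.69 (difference -1.79, SE 0.34, edgeR adjusted p 0.015), and Eomes -0.29 and -2.04 (difference -1.75, SE 0.35, edgeR adjusted p 0.02). Tnfsf8, the gene of the CD30 ligand, stood at 354 and 357 CPM in YFPneg and 248, 338 and 422 CPM in YFPpos libraries with SGC0649; the groups overlapped and -0.08 (SE 0.17) did not pass the test, while it had -1.43 with SGC0946 (difference -1.34, SE 0.23, edgeR adjusted p 0.0079). Tcf7 had -2.26 and -3.18 (difference -0.92, SE 0.10, edgeR adjusted p 0.00075).

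On the positive side, Apol7e, of the apolipoprotein L family, stood at 43.7 and 55.8 CPM in YFPneg and 4.82, 3.59 and 2.77 CPM in YFPpos libraries with SGC0649. Its log2 fold change was -3.74 with SGC0649 and -2.27 with SGC0946, a difference of 1.47, SE 0.25, edgeR adjusted p 0.0079. Ifitm3, which blocks virus entry, was higher in YFPpos cells with both, at 1.66 and 2.82 (difference 1.17, SE 0.23, edgeR adjusted p 0.02). Cd74, the invariant chain of class II molecules, had -1.38 and -0.30 (difference 1.07, SE 0.18, edgeR adjusted p 0.0068). Ifng itself had 4.45 and 3.26, a difference of -1.19 (SE 0.46) that did not pass the test.

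**Figure D4:**
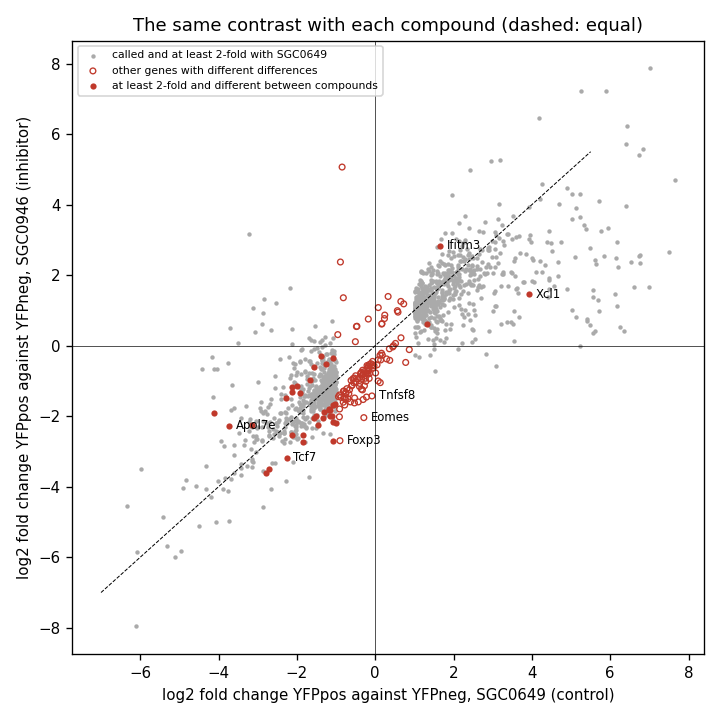
Log2 fold change of YFPpos against YFPneg cells with SGC0946 (vertical axis) against that with SGC0649 (horizontal axis), for the 1243 genes called and at least 2-fold with SGC0649 (grey and filled red) and for other genes whose differences differed between the compounds (open red). Most points lie near the dashed line of equal values, and 1211 of the 1243 (97.4%) have the same sign with both compounds.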

How the data were processed

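RNA sequencing libraries of sorted or naive mouse CD4+ T cells were compared. The deposited table holds raw read counts per gene, made by the authors with featureCounts on GRCm38, per the submitters' processing notes, which also name edgeR and limma. The aligner and the gene annotation version used for counting were outside the sources read. All 14 libraries were fitted in edgeR 4.0.16 (R 4.3.3) with 1 mean per group, TMM scaling, filterByExpr and the quasi-likelihood test, with Benjamini-Hochberg adjustment over 12343 genes and a threshold of 0.05. The common dispersion was 0.00831 (a biological coefficient of variation of 9.12%). Standard errors (SE) are the log2 fold change over the square root of F. Alternatives were DESeq2 1.42.0, its size factors, no filter, smaller sets of libraries, a replicate block and leaving out each library. Scripts were tested on simulated data.

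Members and gene lists were chosen with earlier results of these data known. Named genes were 6 set genes, the 12 higher and 12 lower with the largest change (mean log2 CPM at least 3, no overlap), up to 5 and 2 of each list by p, the 6 largest differences between compounds in each direction and the 8 most abundant 2-fold genes. Other list members are named as examples chosen after their values were seen. Coordinates come from GENCODE gene models on GRCm38. Counting intervals cover counting error only. Libraries differed from each other by more than sampling noise.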

Additional observations from a re-analysis of the deposited data

Results flagged for a closer look

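For 32 of the genes followed, the YFPpos against YFPneg difference itself differed between the compounds in edgeR's quasi-likelihood test (values are log2, SGC0946 minus SGC0649). The 24 negative values were led by Xcl1 at -2.46, Foxp3 at -1.79, Eomes at -1.75, Cd226 at -1.62, Tnfsf8 at -1.34, Akr1c13 at -1.25, Tox at -1.18 and Cd69 at -1.10. Tnfsf14 had -0.98, Tcf7 -0.92, Nr4a1 -0.85, Bach2 -0.81, Stat4 -0.79, Ccr7 -0.75, Izumo1r -0.75, Cd274 -0.72 and Serpinb6b -0.71. Smaller values were those of Il6st at -0.69, Klf3 at -0.68, Egr1 at -0.59, Irf8 at -0.45, Cd6 at -0.42, Cd5 at -0.37 and Stat5b at -0.35. The 8 positive values were those of Apol7e at 1.47, Jag2 at 1.27, Ifitm3 at 1.17, Cd74 at 1.07, Serpina3g at 1.07, Cxcr4 at 1.02, Gbp6 at 0.95 and S1pr1 at 0.82. Bach2, Ccr7, Cd6, Cd74, Gbp6, Il6st, Nr4a1, Tcf7 and Tox passed under each of the 16 alternatives run for this test, and the other 23 missed the threshold in at least 1 of them.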

How the results depend on the processing

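The counts of 2955 higher and 2630 lower genes stayed within 1.5 times under each alternative run, between 2318 and 3147 and between 2154 and 2772. Of 295 named genes called, 255 kept their direction and side of the threshold throughout. The 142 genes that differed between compounds became 301 with DESeq2 and 56 with only the cultured libraries fitted, and ranged from 61 to 241 when 1 library was left out. Values that changed sign belonged to genes that did not pass the test. With only SGC0649 libraries Myc had -0.0159 and Usp18 -0.0275. Leaving out 1 library gave -0.409 to 0.273 for Cxcr3, -0.0802 to 1.16 for Il2, -0.0402 to 0.0719 for Myc, -0.295 to 0.0947 for Tnfsf8 and -0.097 to 0.115 for Usp18, and the cause was not tested. A replicate block left 2736 higher and 2438 lower genes, gave 196 between compounds and 19 cholesterol genes, and moved Myc to -0.0276. The block also called 4 named genes that missed the threshold in the main fit: Eomes (-0.63, edgeR adjusted p 7.58e-05), Il7r (0.56, 2.75e-05), Tnfsf8 (-0.30, 0.00841) and Serpina3g (0.39, 0.049). Of these, Eomes and Il7r also passed without YFPpos replicate 3. The block ended 7 calls, those of Bcl2l12, Cd8b1, Cxcl10, Cxcr4, Dnajb9, Mx1 and Pfkfb4. The labels do not say that equal numbers share an animal or a day, and the differences between replicates 1 and 2 of YFPneg and of YFPpos SGC0649 libraries correlated at 0.119 over genes. Deviations of same-numbered SGC0946 libraries correlated at 0.111, 0.0784 and 0.0405, each best with its own number, a hint from the data only. With 2 YFPneg libraries, leaving out 1 assumes that the other varies like the remaining groups.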
